A study of Mus musculus with 6 samples.

Results

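The 10 genes described here encode parts of the 2 antigen-presenting systems of the major histocompatibility complex (MHC): H2-Eb1, H2-Aa, H2-Ab1, H2-DMa, Cd74 and Ciita of the class II system, and H2-K1, H2-D1, B2m and Tap1 of the class I system. They are 10 of the 19053 genes named on the array. All 23 probes that carry one of these symbols in the platform annotation were taken, detected or not. The genes were gathered around H2-Eb1, one of the largest rises in this same comparison of genotypes, so their differences between genotypes are given below as a description and without a test. Total RNA came from mouse E14 cells, embryonic stem cells of the 129/Ola strain. Cells in which both copies of Lsd1 lack exon 3 (Δ3/Δ3) were set against cells with 1 deleted copy and 1 copy whose exon 3 can still be removed (Lox/Δ3), with 3 Illumina bead arrays for each genotype. Lsd1, whose current symbol is Kdm1a, encodes a histone demethylase, and the Lox/Δ3 cells are therefore heterozygous and not wild type. The series text speaks of biological replicates but not of separate clones, so any test measures the spread between these arrays.

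Class II molecules are pairs of an alpha and a beta chain that display peptides from internalised proteins to CD4+ T cells, and they are normally made by B cells, macrophages and dendritic cells. Their genes share a promoter layout, an X box and a Y box bound by RFX, CREB and NF-Y proteins, on which the coactivator CIITA acts. Class I molecules, a heavy chain with beta-2-microglobulin, display peptides from the cytosol on most cells, and embryonic stem cells are known for low class I levels.

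Per-array values are either the non-normalized probe signal, on the linear scale of the deposited table, or the log2 value after background correction and quantile normalization. A probe counts as detected on an array where its deposited detection p-value is under 0.05. The lowest signal of any detected probe lay between 83.7 and 94.0 on the Δ3/Δ3 arrays and between 87.6 and 102.6 on the Lox/Δ3 arrays. Between 18506 and 19799 probes were detected per array, with Lox/Δ3 array 1 at the low end. The Kdm1a transcript had log2 values of 10.56, 10.21 and 10.42 on the Δ3/Δ3 arrays, against 12.07, 11.77 and 12.02 on the Lox/Δ3 arrays, a difference of -1.56 ± 0.15 (SE, limma adjusted p = 0.0130). Whether its probe lies within exon 3 was not examined. All 10 listed stem cell markers were detected on all arrays of both genotypes, and limma called 0 of them (0 also at an unadjusted p under 0.05). In the mean, 5 were higher and 5 lower in Δ3/Δ3. Their summed normalized signals did not overlap and were lower in Δ3/Δ3, at 87957.0 to 89069.4 against 91999.6 to 98583.8 in Lox/Δ3 cells. Dppa5a and Esrrb, the markers with the highest probe signal averaged over all 6 arrays, had log2 means of 15.28 and 13.51 in Δ3/Δ3 cells and of 15.39 and 13.70 in Lox/Δ3 cells. Utf1 and Pou5f1, with the smallest p among them, differed by -0.41 ± 0.20 and -0.22 ± 0.13 (SE, limma adjusted p = 0.335 and 0.451). In bulk RNA, fewer cells that carry a transcript and less transcript per cell cannot be told apart.

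Promoter windows from RefSeq (assembly GRCm38.p6, 250 bases before to 50 bases after the start) were at hand for 7 of the 10 genes, and 3 are shown: both classical class II chain genes with a window, for the letters of the elements named above, and 1 class I heavy chain gene beside them. They are those of the class II beta chain gene H2-Eb1 (chr17:34305617-34305916, plus strand), the class II alpha chain gene H2-Aa (chr17:34287774-34288073, minus strand) and the class I heavy chain gene H2-D1 (chr17:35262844-35263143, plus strand). Each is written along its gene, and capitals mark matches to the letters searched, on either strand.
H2-Eb1: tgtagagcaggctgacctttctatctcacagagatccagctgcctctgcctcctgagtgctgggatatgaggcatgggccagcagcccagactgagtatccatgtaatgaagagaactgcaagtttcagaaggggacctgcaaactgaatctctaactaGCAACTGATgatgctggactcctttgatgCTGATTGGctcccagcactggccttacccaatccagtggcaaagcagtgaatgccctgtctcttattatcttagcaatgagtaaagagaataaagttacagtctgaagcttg
H2-Aa: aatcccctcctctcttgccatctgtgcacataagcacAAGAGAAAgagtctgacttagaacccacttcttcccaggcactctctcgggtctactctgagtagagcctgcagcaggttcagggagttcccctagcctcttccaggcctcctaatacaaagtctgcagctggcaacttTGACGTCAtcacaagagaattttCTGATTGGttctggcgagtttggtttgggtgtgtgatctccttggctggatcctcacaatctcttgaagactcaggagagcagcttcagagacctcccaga
H2-D1: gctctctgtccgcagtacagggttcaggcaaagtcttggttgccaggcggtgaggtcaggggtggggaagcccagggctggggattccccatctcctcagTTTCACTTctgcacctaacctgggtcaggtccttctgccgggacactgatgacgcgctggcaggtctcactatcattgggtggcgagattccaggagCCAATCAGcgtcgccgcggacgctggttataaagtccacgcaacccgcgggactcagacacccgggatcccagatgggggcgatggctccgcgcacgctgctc

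The letters searched were GNAACNGAT for the core of the X box, TGACGTCA for a full cyclic AMP response element of the kind found at the 3′ side of some X boxes, CTGATTGG for the Y box, and AANNGAAA for the binding consensus of interferon regulatory factors. They were chosen after the windows had been read, and no matches overlapped one another. H2-Eb1 held the X box core with its first base 91 bases before the start and the Y box with its first base 62 bases before it, with 20 bases between them. H2-Aa held TGACGTCA at 74 bases and the Y box at 51 bases before the start. H2-D1 held the Y box letters on the other strand at 53 bases before the start, and H2-K1 and Tap1 held them too. The interferon factor letters were found in H2-Aa, H2-D1, H2-K1, H2-DMa and B2m and not in the windows of H2-Eb1 and Tap1. Of all 32851 windows in the RefSeq table, 2.05% held the X box core, 1.79% TGACGTCA, 4.1% the Y box, 23.9% the interferon factor letters and 0.1% both the X box core and the Y box. A match is a stretch of letters and not a measured binding site. The lack of a match, as for the X box core letters in H2-Aa, does not show that the element is absent. Because the letters were chosen with these windows in view, the shares do not test how unusual the matches are.

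The class II genes that could be measured were higher in Δ3/Δ3 cells on every probe kept. Of the 10 probes for H2-Eb1, H2-Ab1, H2-Aa, Cd74 and H2-DMa, 8 passed the detection filter (detected on at least 3 of the 6 arrays), and log2 differences of these 8, Δ3/Δ3 minus Lox/Δ3, ran from 0.51 to 2.15. The log2 values of all 8 probes lay higher on every Δ3/Δ3 array than on any Lox/Δ3 array. Over all 19652 kept probes, 22.2% showed no overlap in one direction or the other, and limma called 1.15% with each probe on its own. The class I genes gave differences on both sides of 0, from -0.20 to 0.46 over 6 kept probes, and every one of these overlapped between the genotypes. These counts describe genes that were picked from this comparison and cannot serve as evidence of a class-wide change.

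**Figure D1:**
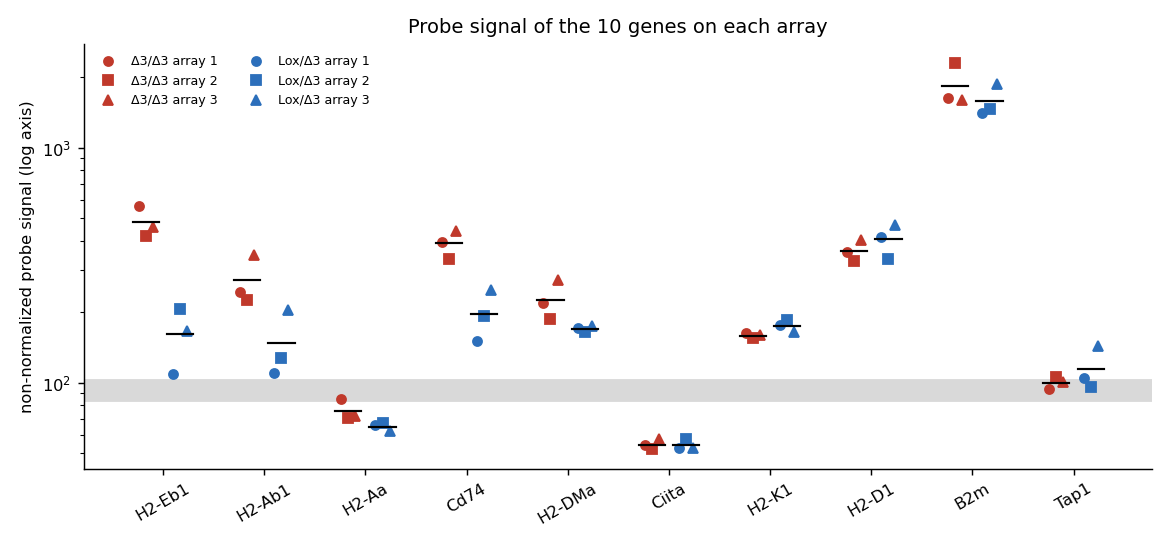
Non-normalized signal (log axis) of 1 probe for each of the 10 genes on the 3 Δ3/Δ3 arrays (red, left) and 3 Lox/Δ3 arrays (blue, right), with black bars for the mean of 3 arrays and a grey band for the lowest detected signals, 83.7 to 102.6. The red points of H2-Eb1, H2-Ab1, Cd74 and H2-DMa lie above the blue ones, those of H2-Aa and Ciita lie in or below the band, and levels of different probes are not comparable.

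H2-Eb1 encodes the beta chain of the I-E class II molecule. Its single probe (ILMN_1239102) had signals of 564.3, 420.8 and 459.3 on the Δ3/Δ3 arrays, against 109.0, 205.1 and 166.5 on the Lox/Δ3 arrays. The lowest Δ3/Δ3 signal was thus above the highest Lox/Δ3 signal, and Lox/Δ3 array 1 was lowest of all. On the log2 scale the means were 8.81 ± 0.13 in Δ3/Δ3 against 6.67 ± 0.85 in Lox/Δ3 cells (SD, n = 3 each), a difference of 2.15 ± 0.37 (SE), or 4.43-fold. The spread among the Lox/Δ3 arrays was the wider one, with log2 values of 5.72, 7.37 and 6.91. Without Lox/Δ3 array 1 the difference was 1.68, and without Lox/Δ3 array 2 it was 2.50. H2-Eb1 was detected on all 6 arrays, but on Lox/Δ3 array 1 only narrowly. Its signal there, 109.0 with a detection p-value of 0.0267, was near the lowest detected signal of that array, 102.6. The size of the difference also depended on the processing. Without background correction the log2 difference was 1.70, and the authors' scaled signals gave means 3.06-fold apart.

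H2-Ab1 encodes the beta chain of the I-A molecule and was read by 3 probes. The brightest (ILMN_1226525) had signals of 242.7, 224.6 and 350.2 in Δ3/Δ3 against 110.0, 127.6 and 203.1 in Lox/Δ3 cells. The groups did not overlap, but Lox/Δ3 array 3 came close to Δ3/Δ3 array 2. Its log2 means were 7.83 ± 0.37 in Δ3/Δ3 against 6.48 ± 0.78 in Lox/Δ3 cells (SD, n = 3 each), a difference of 1.36 ± 0.37 (SE), or 2.56-fold. The second probe (ILMN_2631423), with signals of 148.9, 142.3 and 182.7 in Δ3/Δ3 against 88.4, 91.8 and 112.7 in Lox/Δ3 cells, differed by 1.22 ± 0.23 on the log2 scale. The dimmest probe (ILMN_2913716), with 117.8, 102.2 and 132.4 in Δ3/Δ3 against 81.9, 90.3 and 94.9 in Lox/Δ3 cells, differed by 0.77 ± 0.20. These 2 probes were detected on 3 Δ3/Δ3 arrays and on 2 Lox/Δ3 arrays, so they sat near the detection limit in the Lox/Δ3 cells. The brightest probe was also near that limit on Lox/Δ3 array 1, at 110.0 with a detection p-value of 0.0256.

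H2-Aa encodes the alpha chain that pairs with the H2-Ab1 product. Its single probe (ILMN_2734729) was detected on none of the 6 arrays, and its signals were 84.9, 70.5 and 71.9 in Δ3/Δ3 against 65.8, 67.0 and 62.3 in Lox/Δ3 cells. The signals did not overlap between genotypes, yet all lay under the lowest detected signal of their own array, so no fold is given. The data therefore hold a beta chain signal without a detected signal for its partner.

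Cd74 encodes the invariant chain, which escorts new class II molecules and blocks their peptide groove. Its brightest probe (ILMN_1221817) had signals of 397.6, 334.8 and 442.7 in Δ3/Δ3 against 149.7, 192.0 and 246.9 in Lox/Δ3 cells. The groups stood apart, with Lox/Δ3 array 1 lowest, as for H2-Eb1. Log2 means were 8.48 ± 0.15 in Δ3/Δ3 against 7.13 ± 0.60 in Lox/Δ3 cells (SD, n = 3 each), a difference of 1.35 ± 0.27 (SE), or 2.56-fold. A second probe (ILMN_3089584), with signals of 359.7, 296.3 and 379.8 in Δ3/Δ3 against 159.5, 188.7 and 234.9 in Lox/Δ3 cells, differed by 1.14 ± 0.23 on the log2 scale. The remaining probe (ILMN_1247832) was detected on no array, with signals of 65.6 to 72.3 in Δ3/Δ3 against 57.5 to 67.5 in Lox/Δ3 cells.

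H2-DMa encodes the alpha chain of the DM protein, which takes the invariant chain fragment out of the groove and edits the peptide. Its brighter probe (ILMN_2866856) had signals of 217.9, 185.9 and 273.1 in Δ3/Δ3 against 170.5, 163.9 and 174.9 in Lox/Δ3 cells. Here the Lox/Δ3 arrays lay close together and Δ3/Δ3 array 2 was nearest to them. Log2 means were 7.51 ± 0.29 in Δ3/Δ3 against 6.89 ± 0.14 in Lox/Δ3 cells (SD, n = 3 each), a difference of 0.61 ± 0.17 (SE), or 1.53-fold, the smallest among the 4 class II genes that passed the filter. The other probe (ILMN_2777769), at 172.4, 128.5 and 185.9 in Δ3/Δ3 against 128.3, 133.6 and 130.5 in Lox/Δ3 cells, differed by 0.51 ± 0.18 on the log2 scale. Its raw signals overlapped, and only its normalized values did not.

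Ciita encodes the class II coactivator, which is the usual switch for these genes. Neither of its probes was detected on any array. The probe ILMN_2678211 had signals of 54.1, 52.0 and 57.4 in Δ3/Δ3 against 52.6, 57.8 and 52.7 in Lox/Δ3 cells, and ILMN_2568407 had 47.4 to 54.5 in Δ3/Δ3 against 46.4 to 51.4 in Lox/Δ3 cells. Both stood below the array medians of 73.8 to 83.7 and overlapped between genotypes. Transcript under the detection limit of these arrays, or outside the probes, is not visible here.

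**Figure D2:**
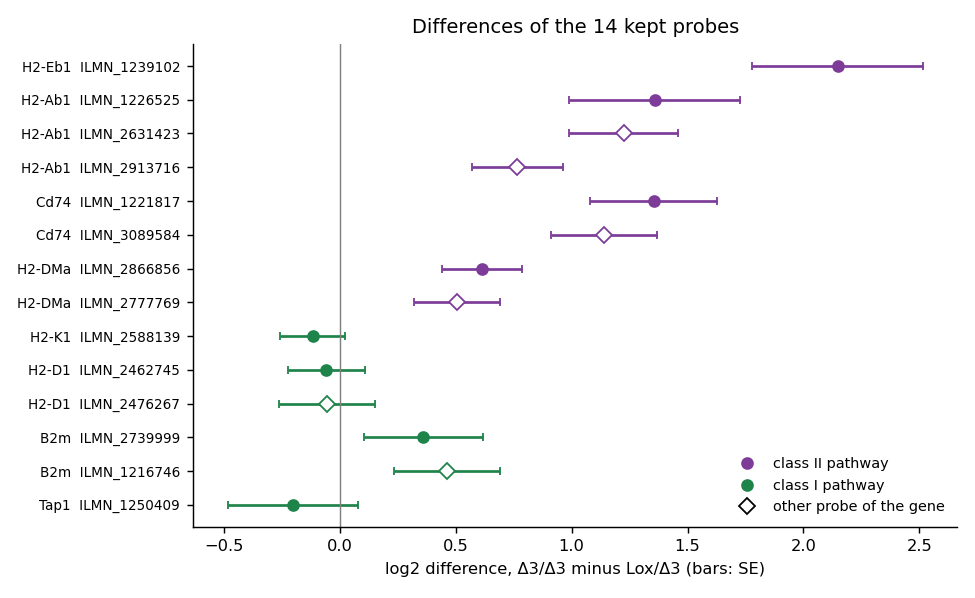
Log2 difference, Δ3/Δ3 minus Lox/Δ3, with its standard error (bars) for the 14 kept probes, purple for the class II genes and green for the class I genes, with open diamonds for further probes of a gene. The purple probes lie between 0.51 and 2.15 and the green ones between -0.20 and 0.46.

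Among the class I genes, the heavy chain gene H2-K1 had signals of 162.3, 154.3 and 159.2 in Δ3/Δ3 against 176.1, 184.1 and 163.5 in Lox/Δ3 cells on the probe that passed the filter (ILMN_2588139). The raw signals were a little lower on all Δ3/Δ3 arrays, but the log2 values overlapped, with means of 6.83 ± 0.072 in Δ3/Δ3 against 6.95 ± 0.19 in Lox/Δ3 cells (SD, n = 3 each). The difference was -0.12 ± 0.14 (SE). Of the other probes, ILMN_2795520 was detected on 0 of 3 Δ3/Δ3 arrays and on 2 of 3 Lox/Δ3 arrays, and ILMN_2634603 on no array.

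H2-D1, the other classical heavy chain gene, had signals of 359.0, 328.8 and 402.9 in Δ3/Δ3 against 417.0, 335.6 and 467.9 in Lox/Δ3 cells (ILMN_2462745). Log2 means were 8.36 ± 0.13 in Δ3/Δ3 against 8.42 ± 0.27 in Lox/Δ3 cells (SD, n = 3 each), a difference of -0.058 ± 0.16 (SE). A second probe (ILMN_2476267) gave -0.056 ± 0.21. The sign of the H2-D1 difference turned with array weights, at 0.083, and without Lox/Δ3 array 3, at 0.097, and stood at 0.0020 without Δ3/Δ3 array 1. The remaining 2 H2-D1 probes were detected on no array. Class I heavy chain genes are close relatives, and their probes may bind each other's transcripts.

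B2m encodes beta-2-microglobulin, the light chain of every class I molecule. Its signals on the probe used for it in the fit over genes (ILMN_2739999) were 1616.4, 2282.1 and 1587.0 in Δ3/Δ3 against 1396.5, 1458.4 and 1855.9 in Lox/Δ3 cells. Array 2 stood out among the Δ3/Δ3 arrays and array 3 among the Lox/Δ3 arrays, and the groups overlapped. Log2 means were 10.86 ± 0.42 in Δ3/Δ3 against 10.50 ± 0.38 in Lox/Δ3 cells (SD, n = 3 each), a difference of 0.36 ± 0.26 (SE). Without Δ3/Δ3 array 2 it was 0.12. A second probe (ILMN_1216746) gave 0.46 ± 0.23, and the remaining one (ILMN_2670561) was detected on no array.

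Tap1 encodes a subunit of the peptide transporter that feeds class I molecules. Its signals were near the detection limit, at 93.6, 106.1 and 100.6 in Δ3/Δ3 against 104.7, 96.2 and 143.3 in Lox/Δ3 cells (ILMN_1250409). The groups overlapped and Lox/Δ3 array 3 stood above the rest. The log2 difference of -0.20 ± 0.28 (SE) turned to 0.12 without that array and to 0.035 with array weights.

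In a limma fit over all 10711 genes kept, 1.31% of genes were called different at a Benjamini-Hochberg adjusted p under 0.05. Of the 8 members in that fit, 1 was called, H2-Eb1, the gene that prompted the choice. Without any 1 of the Δ3/Δ3 arrays limma called 0 of all genes, H2-Eb1 included, with 1552 to 1798 genes at an unadjusted p under 0.05. Between genotypes, 4 of the 8 did not overlap, all higher in Δ3/Δ3, against 11.3% of all genes that did not overlap and were higher. The median log2 difference was 1.36 over the 4 class II genes, -0.09 over the 4 class I genes and -0.025 over all genes tested. Since the same comparison chose the genes, nothing further is read from these shares. The direction of all 4 class II genes held under 11 other processing settings, as the plot of differences under other processing shows. For many settings this was fixed in advance. Those that changed only the filter, the probe rule, the moderated variance or the replicate block left these differences as they were. Array weights cannot turn groups that do not overlap. Only other background correction, other normalization or the authors' values could have turned the direction. Leaving out an array cannot turn a difference between groups that do not overlap.

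**Figure D3:**
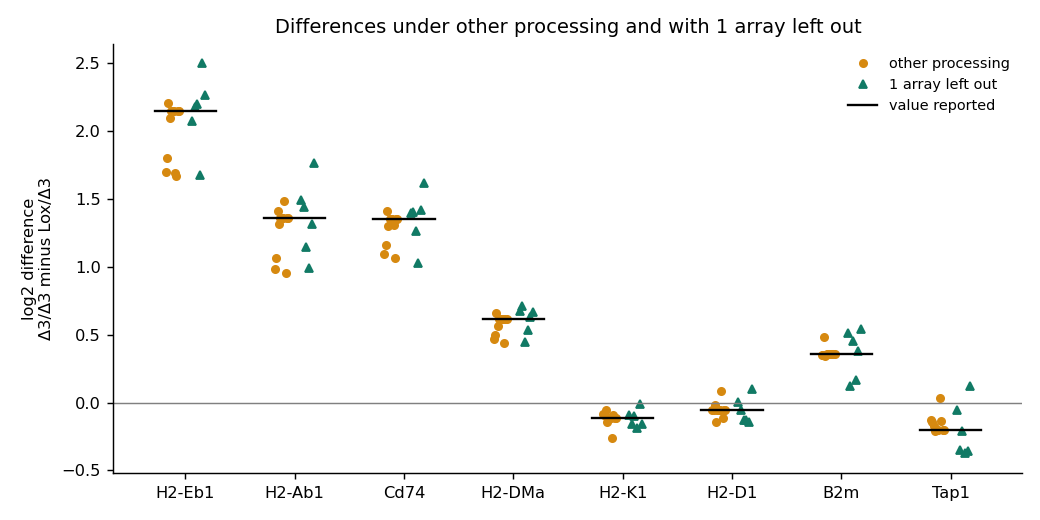
Log2 difference, Δ3/Δ3 minus Lox/Δ3, of the 8 members in the fit as reported (black bar), under other processing settings (orange points) and with 1 of the 6 arrays left out (green triangles). The 4 class II genes stay above 0 throughout, H2-Eb1 between 1.67 and 2.50, while H2-D1 and Tap1 appear on both sides of 0.

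The 4 class II genes shared their low array among the Lox/Δ3 arrays but not their order among the Δ3/Δ3 arrays. All 4 had their lowest Lox/Δ3 value on array 1, where 34.3% of all genes had theirs. In Δ3/Δ3 cells, H2-Ab1, Cd74 and H2-DMa were highest on array 3, and H2-Eb1 on array 1. On Δ3/Δ3 array 2, 0 of the 4 were highest. Lox/Δ3 array 1 was also the array with the fewest detected probes. With it left out, the log2 differences were 1.68 for H2-Eb1, 0.99 for H2-Ab1, 1.03 for Cd74 and 0.54 for H2-DMa.

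The genes whose log2 values followed those of H2-Eb1 most closely over the 6 arrays were Ifi35, an interferon-induced gene (Pearson r = 0.995), Il1r2, a decoy receptor for interleukin-1 (0.994), 1700080O16Rik (0.994), Tsx, an X-linked testis gene (0.993), and Minar2 (0.993). These values pool both genotypes, so they follow the gap between the groups and are a description only. The Ifi35 probe was not detected on Lox/Δ3 array 1. Of 10710 genes compared, 48 reached 0.98 or more. Cd74 stood at rank 196 (0.952), H2-Ab1 at rank 717 (0.858), H2-DMa at rank 822 (0.840) and H2-K1 at rank 5545 (-0.13). Many genes outside the MHC thus had a profile nearer to that of H2-Eb1 than its class II relatives.

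The class II differences were set beside the other genes of both pathways, on lists drawn up from textbook roles with the earlier results known. Together these lists and the marker lists below held 86 tested genes. Of these, limma called 0, against 1.31% of all genes, and 11 had an unadjusted p under 0.05, against 1945 of all 10711 genes. Of 10 other class II genes, 4 were tested and 0 were called. H2-Oa, which encodes the alpha chain of the DM inhibitor DO, differed by 0.42 ± 0.21 (SE, limma adjusted p = 0.345). Ifi30, a reductase of class II peptide processing, differed by -0.26 ± 0.30 (limma adjusted p = 0.704). H2-Ea, whose product is the alpha chain partner of H2-Eb1, was detected on no array, and neither were H2-Eb2 and H2-Ob. Of 7 genes for proteins that sit on class II promoters 5 were tested, with a median difference of 0.063 and 0 called. Nfyc, an NF-Y subunit, was at 0.29 ± 0.21 and Rfxap, an RFX subunit, at 0.18 ± 0.20 (limma adjusted p = 0.516 and 0.700). Rfx5 and Rfxank were detected on no array.

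On the class I side, 9 of 23 further heavy chain genes were tested, 0 were called and their median difference was -0.0093. H2-M5, a nonclassical class I gene, had log2 values of 6.46, 6.65 and 6.14 in Δ3/Δ3 against 7.61, 7.08 and 6.74 in Lox/Δ3 cells. Its groups did not overlap, but the difference of -0.73 ± 0.24 (SE) did not pass (limma adjusted p = 0.158). H2-T23, which encodes the ligand of the inhibitory natural killer receptor CD94/NKG2A, differed by -0.27 ± 0.21 (limma adjusted p = 0.567). Of 13 peptide loading genes 9 were tested, with a median of 0.12 and 0 called. The proteasome activator gene Psme1 was at 0.37 ± 0.18 and the immunoproteasome gene Psmb9 at -0.35 ± 0.18 (limma adjusted p = 0.333 and 0.361). Nlrc5, the coactivator of class I genes, was detected on no array, as was Ciita for class II.

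**Figure D4:**
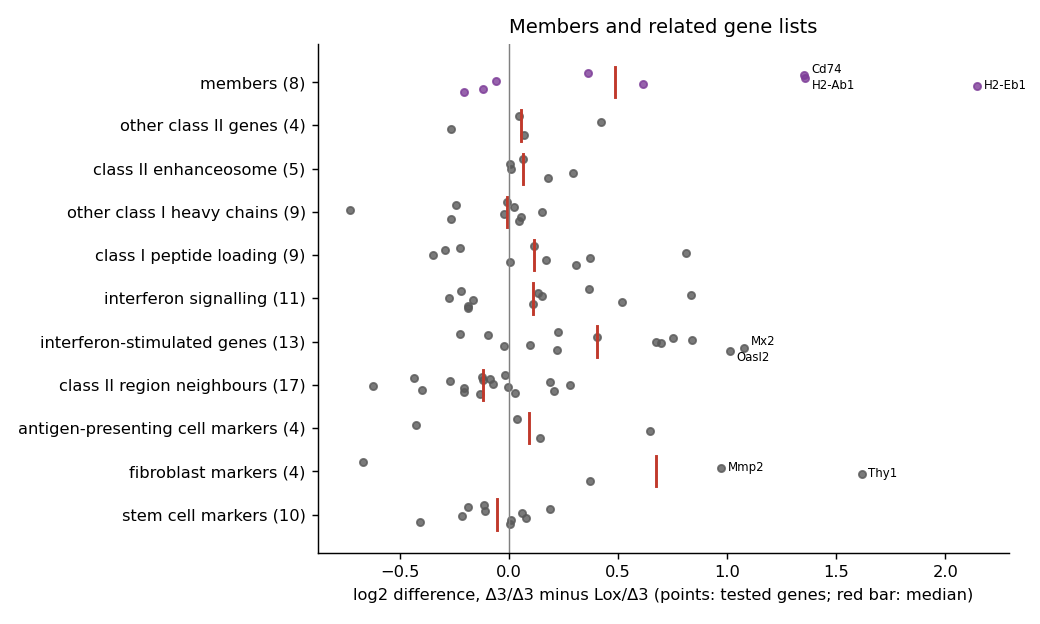
Log2 difference, Δ3/Δ3 minus Lox/Δ3, of each tested gene (points) in the 10 MHC genes and the related lists, with the number tested in brackets and a red bar at the median. The members range from -0.20 to 2.15, interferon-stimulated genes have a median of 0.40, and Thy1 and Mmp2 lie farthest right among the cell markers.

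Interferon-gamma is the usual inducer of class II genes outside immune cells, so interferon pathway genes, type I included, were listed as well. The interferon genes Ifng and Ifnb1 were detected on no array. Of 17 signalling genes 11 were tested and 0 were called, with a median difference of 0.11. The transcription factor gene Irf1 had log2 values of 11.48, 11.08 and 10.59 in Δ3/Δ3 against 9.999, 10.77 and 9.87 in Lox/Δ3 cells. Its groups overlapped through Lox/Δ3 array 2, and the difference was 0.84 ± 0.29 (SE, limma adjusted p = 0.186), with 4 further probes between 0.71 and 0.76. Ifnar2, a receptor gene for type I interferons, differed by 0.37 ± 0.17 (limma adjusted p = 0.297), and its second probe by 0.10 ± 0.17. The interferon-gamma receptor genes Ifngr1 and Ifngr2 differed by -0.22 ± 0.19 and 0.13 ± 0.30 (limma adjusted p = 0.606 and 0.864).

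Of 24 interferon-stimulated genes outside the MHC, 13 were tested, 10 were higher in the mean and 0 were called. Their median difference was 0.40, against -0.025 over all genes, and 4 did not overlap, all higher in Δ3/Δ3 (11.3% of all genes). Of these 4, Mx2, Ifit2 and Ifi35 were detected on 3 Δ3/Δ3 arrays but on 0, 1 and 2 Lox/Δ3 arrays. They passed the detection filter only through the Δ3/Δ3 arrays, where they are high. The count and the median are therefore a description and no support for a change. Mx2, an antiviral GTPase gene, had log2 values of 6.56, 5.88 and 5.70 in Δ3/Δ3 against 4.82, 5.22 and 4.87 in Lox/Δ3 cells. Its probe was detected on each of the Δ3/Δ3 arrays but on none of the Lox/Δ3 arrays, which makes it at least 1.498-fold higher, without passing the test (limma adjusted p = 0.0660). The bound sets each Lox/Δ3 array at the lowest log2 value of its detected probes. Ifi35 had 6.24, 6.08 and 6.16 in Δ3/Δ3 against 4.91, 5.55 and 5.49 in Lox/Δ3 cells, a difference of 0.84 ± 0.18 (SE, limma adjusted p = 0.0676). Its probe was not detected on Lox/Δ3 array 1, where the lowest detected log2 value was 5.56. On Lox/Δ3 arrays 2 and 3 it was near the lowest detected values, 5.42 and 5.41, so the size of the difference is uncertain. Another 10 of the 24, among them Ifit1, Mx1 and Rsad2, were detected on no array.

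The arrays on which the interferon-stimulated and peptide loading genes were highest and lowest are given as a description, since differences between lists were not tested. Of the 9 peptide loading genes, 8 were highest on array 2 among the Δ3/Δ3 arrays and 5 on array 2 among the Lox/Δ3 arrays. Of the 13 interferon-stimulated genes, 7 were highest on array 2 in each genotype. Over all genes the shares highest on array 2 were 32.9% in Δ3/Δ3 against 25.8% in Lox/Δ3 cells. Lowest among the Lox/Δ3 arrays was array 1 for 7 of the 9 peptide loading genes and 7 of the 13 interferon-stimulated genes (34.3% of all genes), the same array as for the 4 class II genes. Psmb8, an immunoproteasome gene, had log2 values of 7.48, 7.91 and 6.08 in Δ3/Δ3 against 5.91, 6.94 and 6.19 in Lox/Δ3 cells. Array 2 was highest in both genotypes, and Δ3/Δ3 array 3 lay among the Lox/Δ3 arrays. B2m too was highest on Δ3/Δ3 array 2, whereas H2-Ab1, Cd74 and H2-DMa were highest on Δ3/Δ3 array 3.

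Position was examined because 7 of the 10 genes lie in the MHC on chromosome 17, whereas Cd74 lies on chromosome 18, Ciita on chromosome 16 and B2m on chromosome 2. Gene order was taken from the RefSeq table, and from H2-K1 to H2-D1 it held 58 tested genes, 6 of them members. Of the other 52 genes limma called 0, 11 had an unadjusted p under 0.05, 5 did not overlap and were higher in Δ3/Δ3, and 6 did not overlap and were lower. Over all 10711 genes, 1945 had an unadjusted p under 0.05, 11.3% did not overlap and were higher, and 12.5% did not overlap and were lower. The median difference of the 52 genes was -0.04. Within 10 places of H2-Eb1 there were 17 tested genes that were no members, with differences from -0.62 for Pbx2 to 0.81 for Psmb8 and a median of -0.02. Notch4, next to H2-Eb1 among tested genes, differed by 0.28 ± 0.30 (SE). Pbx2, a homeobox gene of that stretch, had log2 values of 7.05, 6.97 and 7.24 in Δ3/Δ3 against 7.85, 7.65 and 7.62 in Lox/Δ3 cells (limma adjusted p = 0.0660). The galactosyltransferase gene B3galt4, outside the stretch from H2-K1 to H2-D1, differed by -0.43 ± 0.20 (SE, limma adjusted p = 0.306). A second B3galt4 probe differed by -0.023 ± 0.20. Pbx2 and B3galt4 both stand on a list of 25 class II neighbours, of which 17 were tested and 0 called, with a median of -0.12. Tap1, which lies between H2-DMa and H2-Ab1, did not share their direction in the fit reported.

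**Figure D5:**
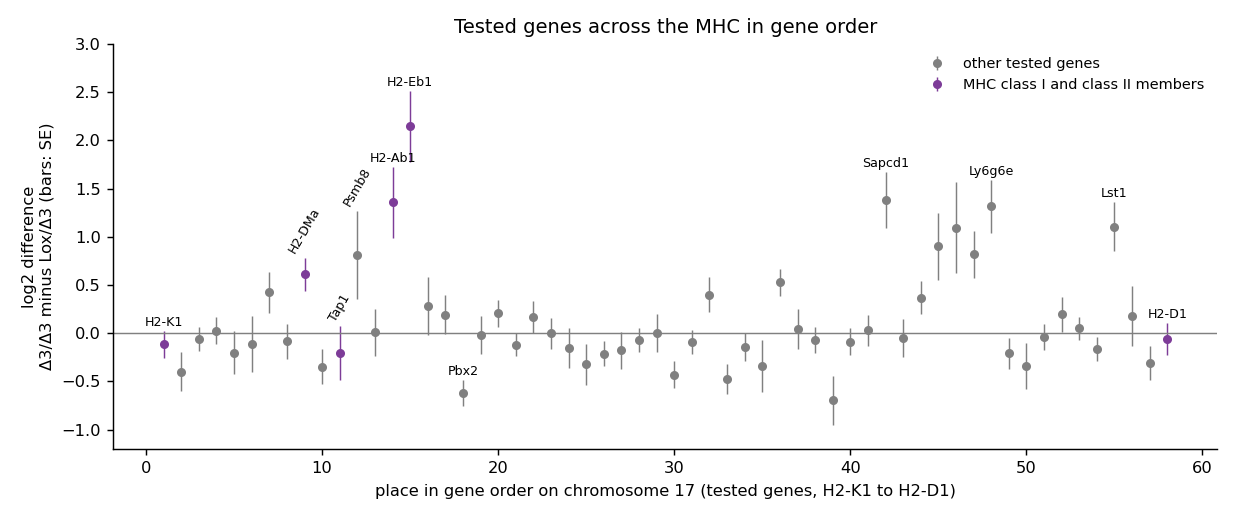
Log2 difference, Δ3/Δ3 minus Lox/Δ3, with its standard error (bars) for the 58 tested genes from H2-K1 to H2-D1 in their order on chromosome 17, purple for members and grey for other genes. H2-DMa, H2-Ab1 and H2-Eb1 stand above 0 with H2-Eb1 at 2.15, Tap1 between them lies at -0.20, and a second stretch of positive values holds Sapcd1, Ly6g6e and Lst1.

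Farther along this order, and chosen after their values were seen, Sapcd1 was at 1.38 ± 0.29, Ly6g6e, a small cell-surface protein gene, at 1.32 ± 0.28, and Lst1 at 1.11 ± 0.25 (SE, limma adjusted p from 0.0630 to 0.0753). None of these 3 overlapped between genotypes, and none passed the test. They lie on the H2-D1 side of the region, with genes of smaller difference between them and H2-Eb1.

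Class II transcripts are typical of other cells, so markers of such cells were read on the same arrays. Of 20 antigen-presenting cell markers with a probe, 15 were detected on no array, among them Ptprc, Itgax, Itgam, Csf1r, Ms4a1 and Cd86. The 4 tested, Cd79b, Cd80, Zbtb46 and Cd40, had summed normalized signals of 345.3 to 477.6 in Δ3/Δ3 against 348.8 to 399.9 in Lox/Δ3 cells. Those sums overlapped. Cd79b was at -0.43 ± 0.18 and Cd80 at 0.64 ± 0.28 (SE, limma adjusted p = 0.249 and 0.272). Of 14 fibroblast markers, genes that feeder cells would carry, 9 were detected on no array, including Col1a2, Col3a1, Dcn, Lum and Postn, and 4 were tested with 0 called. Their summed normalized signals, 2784.4 to 3817.1 in Δ3/Δ3 against 1451.1 to 1963.6 in Lox/Δ3 cells, did not overlap.

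Of the 4 fibroblast markers tested, 3 did not overlap and were higher in Δ3/Δ3 (11.3% of all genes), namely Thy1, Mmp2 and Twist1, and Mmp2 and Thy1 had the highest probe signals in the sum. Thy1, a surface glycoprotein gene, had log2 values of 9.63, 9.96 and 9.91 in Δ3/Δ3 against 7.49, 8.33 and 8.82 in Lox/Δ3 cells, with Lox/Δ3 array 1 lowest as for the class II genes. Its difference of 1.62 ± 0.30 (SE) did not pass (limma adjusted p = 0.0523), nor did that of the gelatinase gene Mmp2, 0.97 ± 0.20 (limma adjusted p = 0.0599). The transcription factor gene Twist1 differed by 0.37 ± 0.19 (SE, limma adjusted p = 0.348). The collagen gene Col1a1 was the fourth, at 6.43, 6.61 and 5.63 in Δ3/Δ3 against 8.16, 6.90 and 5.61 in Lox/Δ3 cells, with the groups overlapping. The part of fibroblasts in the class II values was not tested.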

How the data were processed

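The authors deposited, for 45281 probes, the linear intensity of each probe on each array before normalization, and next to each deposited intensity a detection p-value. The sources used here do not say how these p-values were made, which scanner software was used or whether slides and scan days differed. The authors' value table holds the same intensity values times 1 constant per array, which sets every median to 1000. Per the labels' protocols, RNA was extracted with Trizol, cleaned with DNase treatment and amplified to biotinylated cRNA.

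Probes were named from the platform annotation, which can be old: 34885 had 1 symbol, 18 several and 10378 none. Symbols were updated through RefSeq (GRCm38.p6), which matched 34818. Neither deposited table names a build. Background was removed with limma's nec, which models it from the detection p-values (offset 16, which pulls folds of weak genes toward 1). Quantile normalization and log2 followed. A probe was kept (19652 were) if at least 3 arrays gave it a detection p under 0.05. Each gene was represented by its probe with the highest mean (10711 genes). This probe was chosen anew under each other processing setting with 1 probe per gene. The fits without 1 array kept the probes and the normalized values of all 6 arrays. Genotypes were compared with limma (lmFit, eBayes) on all 6 arrays with genotype as the single term, two-sided, with Benjamini-Hochberg adjustment over all genes. Standard errors of further probes of a gene come from the same fit over all kept probes. The number of arrays limits the precision. The fit was tested on simulated data. R 4.3.3, limma 3.58.1, Python 3.11.15 and matplotlib 3.10.9 were used.

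The 10 genes, the lists and the tests were chosen with earlier results of these data known. Named were all members, Kdm1a, from each other list the genes called or otherwise the 2 with the smallest p, for cell marker lists also the 2 with the highest mean probe signal, and the 5 genes most correlated with H2-Eb1. Genes named outside this rule (Psmb8, Notch4, Sapcd1, Ly6g6e, Lst1, Col1a1, Twist1, the values of H2-K1 among the correlations and genes given only as detected or not) were chosen after their values were seen. Ifngr1 and Ifngr2 were also named outside this rule, after their values were seen. A further list, of NKG2D ligands, had 7 genes, 3 with a probe and 0 detected. Alternatives covered background correction, normalization, the filter, the probe rule, array weights, the authors' values, moderated variance settings, a replicate block and leaving out each array.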

Additional observations from a re-analysis of the deposited data

How the results depend on the processing

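H2-Eb1, H2-Ab1, Cd74 and H2-DMa stayed higher in Δ3/Δ3 under all 11 other settings. They also did so in all 6 fits without 1 array, an outcome fixed in advance because their groups do not overlap. Over the settings, the log2 difference ran from 1.67 to 2.21 for H2-Eb1, 0.96 to 1.49 for H2-Ab1, 1.06 to 1.41 for Cd74 and 0.44 to 0.66 for H2-DMa, lowest each time with the authors' value table. H2-K1 stayed below 0 and B2m above 0 throughout. In limma H2-Eb1 was called under 9 of 11 settings, not with cyclic loess or without the filter on dim probes, and in 3 of 6 fits without 1 array, not without any 1 of the Δ3/Δ3 arrays. Cd74 was called under 7 settings and H2-Ab1 under 2, and both without Lox/Δ3 array 3. Since the same comparison chose these genes, the calls describe how the fit depends on the settings and are no evidence of a change.

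Against 140 genes called by limma, 261 were called with median scaling, 24 with no filter, 226 with each probe on its own, 511 with array weights and 371 with the replicate block, and 0 to 275 without 1 array. At 0 calls, without any 1 of the Δ3/Δ3 arrays, 1552, 1798 and 1603 genes had an unadjusted p under 0.05. Against 0 listed genes called, 2 were called with no background correction, 2 with an offset of 50, 3 with median scaling, 1 with detection p under 0.01, 3 with array weights, 2 with the authors' table, 2 with trend and robust settings, 3 with the replicate block, and 0 to 2 without 1 array. These were Thy1 in 9 fits, Mmp2 in 8, and Mx2, Ifit2 and Pbx2 in 1 each. The cause was not tested. Deviations from the group means correlated at 0.358, 0.0668 and 0.402 for same-numbered arrays of the 2 genotypes, and at -0.505 to 0.29 for the others. Δ3/Δ3 array 2 correlated best with Lox/Δ3 array 3 (0.132). These values do not settle whether arrays were paired by number, and the main fit used no pairing. With 3 arrays a genotype, signals under about the array's detection limit, as for H2-Aa, Ciita and most immune cell markers, carry no fold.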
